A study of Mus musculus with 4 samples.

Results

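The mitotic kinesins are motor proteins that build the spindle, move chromosomes on it and help to divide the cell after mitosis. The 10 genes described here are Kif11, Kif15, Kifc1, Kif4, Kif22, Kif2c, Kif18a, Kif20a, Kif20b and Kif23. They were taken by gene symbol, all 10 were found among the 14533 genes of the expression table, and all 10 passed the filter on low values described below. Their transcripts were measured by RNA sequencing of mouse embryonic stem cells (ESCs), in 2 serum and 2 2i libraries. Serum ESCs grew in medium with fetal calf serum and the cytokine LIF. The 2i ESCs grew in serum-free medium with LIF, the GSK3 inhibitor CHIR99021 and the MEK inhibitor PD0325901. Both groups had been adapted to their medium for over 20 days. The labels place the cells of all 4 libraries in late G1-phase, whereas early G1-phase is named in the text on the series design, and the labels name no cell line. The study's methods describe sorting ESCs that carry the FUCCI reporter, which colors a cell by its place in the cell cycle, so that all groups were sorted cells.

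Kinesins bind microtubules and use ATP either to walk along them or to take their ends apart. Dividing cells use a set of them in which each has its own place: some push the spindle poles apart, some sit on chromosome arms, some trim microtubule ends, and some bundle the microtubules left between the separating chromosomes. Their transcripts are known to follow the cell cycle in many cell types, with a peak in G2/M-phase and a low level in G1-phase. ESCs divide rapidly, and MEK and GSK3 inhibition holds them in a uniform naive state.

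All 10 mitotic kinesins had higher normalized counts in both serum libraries than in either 2i library. A normalized count is the number of reads of a gene divided by a factor that evens out the sizes of the libraries. The fold change of the 10 genes, serum over 2i, ran from 1.66 for Kifc1 to 4.99 for Kif23, and their median log2 fold change was 1.53, beside a median of 0.0047 over the 13005 genes tested. Such a separation in favor of serum was found for 20.5% of all genes tested, and the opposite separation for 19.4%. None of the 10 passed the threshold of the main test, limma with Benjamini-Hochberg adjustment over all genes tested at an adjusted p under 0.05 and a fold change of 2. By that test 0 genes (0%) were called higher in serum and 2 genes (0.0154%) higher in 2i. At an unadjusted limma p under 0.05 with the same fold change, 8 of the 10 kinesins passed, all but Kifc1 and Kif18a, beside 2.97% of all genes higher in serum. DESeq2 on the whole reads, with Benjamini-Hochberg adjustment, called Kif20a (adjusted p = 0.00162) and Kif23 (adjusted p = 0.0475) higher in serum, beside 0.561% of all genes.

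The libraries held between 18939401 and 26570098 reads. They differed in how these were spread: the 10 genes with most reads took 50.6% in serum replicate 1 against 17.5% in replicate 2, while the 2i libraries lay between, at 34.7% (replicate 1) and 25.5% (replicate 2). The kinesins rested on 194 reads (Kif23, 2i replicate 2) to 5618 reads (Kif20b, serum replicate 2), and counting error alone gives 194 reads a 95% exact Poisson interval of 168 to 223. Serum replicate 2 exceeded serum replicate 1 for 9 of the 10 kinesins, with a median log2 difference between them (replicate 1 minus replicate 2) of -0.39, whereas the median difference between the 2i libraries was -0.15. The replicates are described as biological, but the sources used here do not say whether they came from separate cultures or sorts, and the p-values measure the spread between these libraries.

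**Figure D1:**
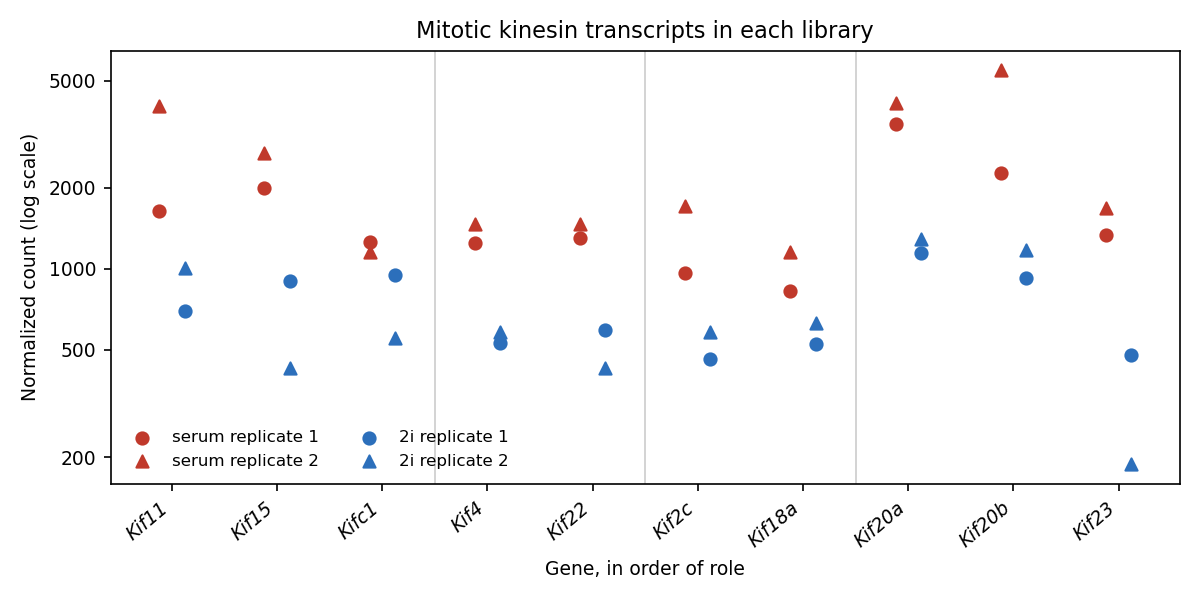
Normalized counts (log scale) of the 10 mitotic kinesins in each library, grouped by role with grey lines between spindle bipolarity, chromosome arms, microtubule ends, and midzone and cytokinesis. Each point is 1 library, red for serum and blue for 2i, and for every gene both red points lie above both blue points.

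Kif11, Kif15 and Kifc1 set the length and bipolarity of the spindle. Kif11 (Eg5, ENSMUSG00000012443, chr19:37450893-37496349, plus strand, here and below in build NCBIM37, which is mm9) cross-links antiparallel microtubules and slides the poles apart. It had 1637 (replicate 1) and 4020 (replicate 2) normalized counts with serum, against 700 and 1006 with 2i, in the same order of replicates as all values below. The serum libraries did not overlap with the 2i libraries but differed 2.46-fold from each other, and the fold change was 3.06 (log2 fold change 1.61, SE 0.57, 95% interval 0.24 to 2.98, limma unadjusted p = 0.0278, Benjamini-Hochberg adjusted p = 0.753).

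Kif15 (ENSMUSG00000036768, chr9:122860199-122927843, plus strand) can keep the poles apart when Kif11 is inhibited. Its normalized counts were 1994 and 2693 with serum, against 899 and 430 with 2i, so that the lowest serum library stood 2.22-fold above the highest 2i library. The log2 fold change was 1.90 (SE 0.52, 95% interval 0.64 to 3.16), with a limma unadjusted p of 0.00978 and a Benjamini-Hochberg adjusted p of 0.753.

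Kifc1 (HSET, ENSMUSG00000079553, chr17:34012611-34027606, minus strand) walks toward microtubule minus ends and pulls the poles together, against the push of Kif11. It had 1256 and 1158 normalized counts with serum, against 952 and 556 with 2i. The log2 fold change was small (0.73, SE 0.47, 95% interval -0.40 to 1.85, limma unadjusted p = 0.167, Benjamini-Hochberg adjusted p = 0.758), with the lowest serum value 1.22-fold above the highest 2i value. It moved between 0.34 and 1.12 when a library was left out. Kifc1 had the smallest log2 fold change of the 10 with all libraries, but Kif18a had it without serum replicate 2 (0.52 against 0.79), without 2i replicate 1 (0.63 against 1.12) and with a GC content and length correction (0.43 against 1.12). Kifc1 is also the member whose reads were hardest to assign: 59.5% of the 43-base words of its transcripts occur in no other gene, and 39.5% occur in Kifc5b, a near-identical copy that had 280 and 378 normalized counts with serum, against 221 and 216 with 2i. The sum of the copies was 1536 in each serum library, and 1173 and 772 in the 2i libraries. Kifc1 and its copy were each separated in favor of serum, so their sum had to be as well, and it says nothing of how the reads were assigned.

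Kif4 and Kif22 bind chromosome arms, and Kif22 pushes them away from the poles. Kif4 (ENSMUSG00000034311, chrX:97821076-97922553, plus strand), which also works at the spindle midzone, had 1252 and 1472 normalized counts with serum, against 533 and 582 with 2i. The replicates lay close to each other within each group, and the log2 fold change was 1.28 (SE 0.42, 95% interval 0.27 to 2.30, limma unadjusted p = 0.0206, Benjamini-Hochberg adjusted p = 0.753). Of its 43-base words 14.3% also lie in Pdzd11 on the opposite strand. Because the strand of the reads is not stated, reads from the overlap cannot be told apart, and Pdzd11 had 154 and 234 normalized counts with serum, against 237 and 415 with 2i.

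Kif22 (Kid, ENSMUSG00000030677, chr7:134171246-134185934, minus strand) had 1300 and 1462 normalized counts with serum, against 591 and 428 with 2i. The lowest serum library stood 2.20-fold above the highest 2i library, and the log2 fold change was 1.45 (SE 0.44, 95% interval 0.40 to 2.51, limma unadjusted p = 0.0143, Benjamini-Hochberg adjusted p = 0.753).

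Kif2c and Kif18a act at microtubule ends. Kif2c (MCAK, ENSMUSG00000028678, chr4:116832244-116855244, minus strand) does not walk but takes microtubules apart, and so frees wrongly attached chromosomes. Its normalized counts of 967 and 1718 with serum, against 462 and 583 with 2i gave a log2 fold change of 1.31 (SE 0.48, 95% interval 0.14 to 2.48, limma unadjusted p = 0.0329, Benjamini-Hochberg adjusted p = 0.753). Kif18a (ENSMUSG00000027115, chr2:109120895-109181904, plus strand) gathers at plus ends and dampens the swinging of chromosomes at the metaphase plate. It had 826 and 1155 normalized counts with serum, against 525 and 630 with 2i, a log2 fold change of 0.76 (SE 0.44, 95% interval -0.30 to 1.83, limma unadjusted p = 0.132, Benjamini-Hochberg adjusted p = 0.753). Kif18a and Kifc1 were the members whose interval included 0.

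Kif20a, Kif20b and Kif23 work at the midzone between the separated chromosomes and in cytokinesis, and the median log2 fold change of this group was 1.75, against 1.61 for the bipolarity group, 1.37 for the arm-bound pair and 1.04 for the pair at microtubule ends. The differences between the roles were not tested. Kif23 (MKLP1, ENSMUSG00000032254, chr9:61765087-61794606, minus strand) forms the centralspindlin complex with Racgap1. It had 1336 and 1689 normalized counts with serum, against 479 and 188 with 2i, and the 2i libraries differed 2.54-fold from each other. Its log2 fold change was 2.32 (SE 0.57, 95% interval 0.95 to 3.69, limma unadjusted p = 0.00568, Benjamini-Hochberg adjusted p = 0.753), and its interval overlapped with that of Kifc1. Leaving out a library moved this log2 fold change between 1.65 and 2.99. It was the largest of the 10 except without 2i replicate 2, when it was 1.65 and those of Kif20b (1.92), Kif11 (1.87) and Kif20a (1.73) were larger.

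Kif20a (MKLP2, ENSMUSG00000003779, chr18:34784278-34792919, plus strand) carries the chromosomal passenger complex to the midzone. It was the member with the tightest replicates relative to its difference: 3449 and 4138 normalized counts with serum, 1141 and 1294 with 2i, and a lowest serum value 2.67-fold above the highest 2i value. The log2 fold change was 1.64 (SE 0.43, 95% interval 0.60 to 2.67, limma unadjusted p = 0.00781, Benjamini-Hochberg adjusted p = 0.753). The 3′ part of Kif20a overlaps with Cdc23 on the opposite strand, and 29.4% of its 43-base words lie there as well. Cdc23, a subunit of the anaphase-promoting complex, had 1990 and 1728 normalized counts with serum, against 1510 and 2394 with 2i (log2 fold change -0.036), so its groups overlapped. Reads in the shared sequence may be counted for either gene, so the Cdc23 values say nothing of how those reads were assigned.

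Kif20b (MPP1, ENSMUSG00000024795, chr19:34996848-35050221, plus strand) is needed for the final cut between daughter cells. Its normalized counts were 2270 and 5461 with serum, against 928 and 1176 with 2i. As with Kif11, serum replicate 2 carried much of the difference, which was 1.75 on the log2 scale (SE 0.56, 95% interval 0.41 to 3.09, limma unadjusted p = 0.0180, Benjamini-Hochberg adjusted p = 0.753).

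Since the groups did not overlap for any member, every difference between a serum and a 2i library was above 0, and the libraries differed in its size. The median log2 difference over the 10 kinesins was 1.19 between serum and 2i replicate 1 and 1.72 between serum and 2i replicate 2, and it was 1.14 and 1.70 in the crossed comparisons. Single genes ran from 0.28 (Kifc1, serum replicate 2 against 2i replicate 1) to 3.16 (Kif23, serum replicate 2 against 2i replicate 2). Leaving out a library moved the log2 fold change of Kif11 between 0.96 and 2.26 and that of Kif20a between 1.50 and 1.77. Without serum replicate 2, 0 of the 10 kinesins passed the unadjusted limma threshold, beside 0.361% of all genes higher in serum, and their median was 1.14. Without serum replicate 1, the library in which a few genes took most reads, 6 of the 10 passed, beside 1.78% of all genes, and the median was 1.75. Without 2i replicate 2, 5 of the 10 passed, beside 2.68% of all genes, and without 2i replicate 1, 6 passed, beside 6.19%.

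**Figure D2:**
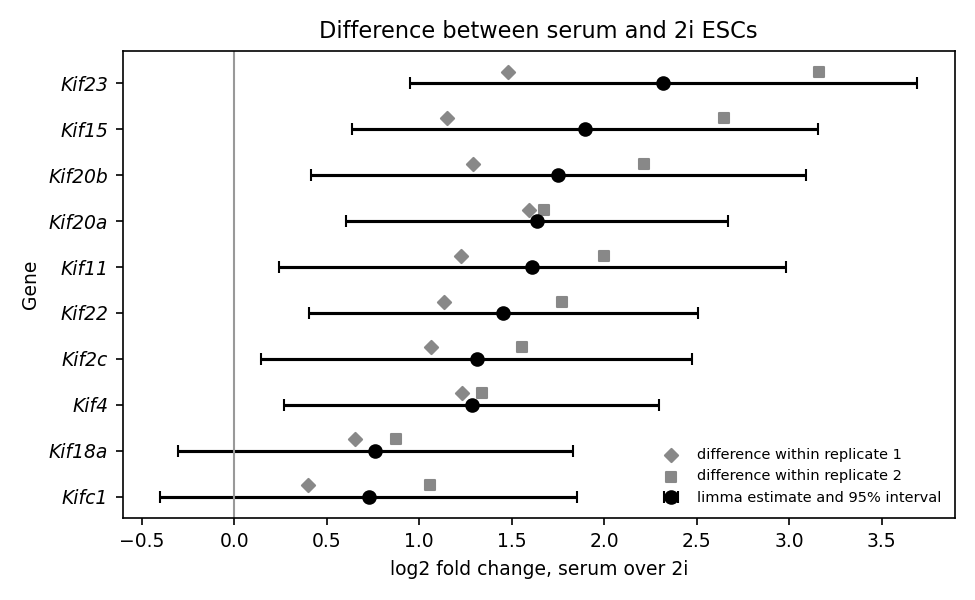
log2 fold change of each mitotic kinesin, serum over 2i, with its 95% interval from limma (black) and the differences within replicate 1 (grey diamonds) and within replicate 2 (grey squares). The intervals of Kif18a and Kifc1 include 0, and every difference within a replicate number lies above 0.

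Set against transcript length, Kif20a had the highest mean of the mitotic kinesins in each group. Per kb of its longest coding transcript, it had 1063 normalized counts in serum and 341 in 2i. In serum it was followed by Kif20b (695), Kif22 (669), Kif11 (587), Kifc1 (513), Kif15 (487), Kif2c (472), Kif23 (442), Kif18a (294) and Kif4 (273), all as mean normalized counts per kb. Neighbors in this order overlapped in their libraries except for Kif23, whose lowest serum library (390 per kb) lay above the highest of Kif18a (343 per kb). In 2i, after Kif20a came Kifc1 (321), Kif22 (247), Kif20b (189), Kif2c (184), Kif11 (177), Kif18a (171), Kif15 (138), Kif4 (112) and Kif23 (97.4), with every neighbor in the order overlapping. Kifc1 thus stood at place 5 in serum and place 2 in 2i, and Kif23 at place 8 and place 10. These places depend on the length used. With all exons counted, Kifc1 stood at place 7 in serum and place 3 in 2i, and Kif23 at place 6 and place 9. Kif18a was the lowest of the 10 in both groups when all of its exons (9832 bases) were counted in place of its coding transcript (3369 bases). In 2i replicate 1, Kifc1 (405 per kb) lay above Kif20a (320 per kb). Kif20a shares 29.4% of its 43-base words with Cdc23, and Kifc1 39.5% with Kifc5b, so their levels may hold reads of those genes.

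The other kinesins of the table were described for comparison. Of 5 further mitotic kinesins 4 were measured, and all 4 were higher in both serum libraries than in either 2i library, with a median log2 fold change of 1.51. Cenpe, which carries chromosomes to the spindle equator, had 1744 and 3129 normalized counts with serum, against 359 to 725 with 2i (log2 fold change 2.19). Kif14, a cytokinesis motor, had 473 and 918 with serum, against 113 to 261 with 2i (1.94), whereas Kif2a (1.07) and Kif18b (0.80), both of which shorten microtubules, did not pass the unadjusted limma threshold. The kinesins of transport and cilia, which carry cargo in cells at any stage of the cycle, had no common direction. Of 24 tested, 13 were higher and 11 lower in serum, and the median log2 fold change was 0.062. Of these 24, 5 were separated in favor of serum and 3 in favor of 2i, beside 20.5% and 19.4% of all genes tested. In this list Kifc3 (log2 fold change 2.50) and the light chain Klc3 (-1.80) passed the unadjusted limma threshold. Kif5b, the heavy chain of conventional kinesin and the transport motor with most reads, had 3588 and 6894 normalized counts with serum, against 1987 and 2976 with 2i.

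As a share of the reads of all 36 kinesin motor genes on these lists, the 10 mitotic kinesins took 51.8% and 53.7% with serum, against 34.3% and 38.3% with 2i. This share does not depend on the scaling of the libraries, and its groups did not overlap. Without the reads of Kif5b it was 58.5% and 63.1% with serum, against 37.9% and 46.0% with 2i. With 2 libraries against 2, an exact permutation test cannot give a p below 0.333, so none was run. Relative to all reads of protein-coding genes, the 10 kinesins took 0.131% and 0.178% with serum, against 0.0555% and 0.0523% with 2i.

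**Figure D3:**
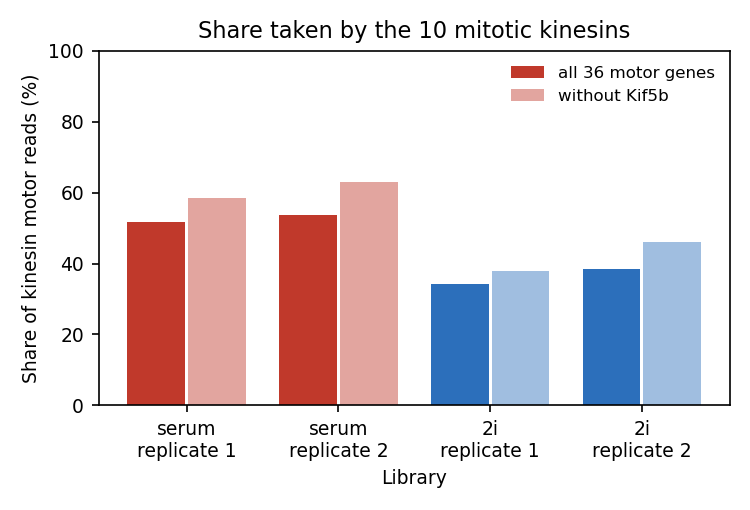
Share (%) of the reads of 36 kinesin motor genes that the 10 mitotic kinesins took in each library, with all motor genes (dark bars) and without Kif5b (light bars), red for serum and blue for 2i. The serum libraries reached 51.8% and 53.7%, the 2i libraries 34.3% and 38.3%.

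The genes for proteins that load, anchor or activate these motors had higher counts in serum as well. All 22 genes of the list had a log2 fold change above 0, and the median was 1.07. Of the 22, 20 were separated in favor of serum, beside 20.5% of all genes tested. The unadjusted limma threshold was passed by 10 of 22, beside 2.97% of all genes higher in serum. None of the 22 passed limma with Benjamini-Hochberg adjustment, and 3 were called higher in serum by DESeq2, beside 0.561% of all genes. Tpx2, which brings Kif11 and Kif15 to spindle microtubules, had 2607 and 3557 normalized counts with serum, against 813 and 543 with 2i (log2 fold change 2.19). Hmmr, a spindle pole protein, had 3312 and 6253 with serum, against 1056 and 631 with 2i (2.48). Plk1, the kinase that docks on Kif20a, had 692 and 905 with serum, against 281 and 119 with 2i (2.10).

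The partners of the midzone motors differed among themselves. Racgap1, which pairs with Kif23, had 1239 and 1649 normalized counts with serum, against 660 and 748 with 2i (log2 fold change 1.02, limma unadjusted p = 0.0527), and Ect2, the GTPase activator that centralspindlin recruits, had a log2 fold change of 1.46. Prc1, the microtubule bundler that Kif4 carries to plus ends, had a log2 fold change of 0.79 and did not pass the unadjusted limma threshold. Within the chromosomal passenger complex, the cargo of Kif20a, Birc5 had 2095 and 2135 normalized counts with serum, against 795 and 436 with 2i (1.84), whereas the kinase subunit Aurkb had 389 and 325 with serum, against 354 and 290 with 2i (0.15), with overlapping groups. Kpna2, an importin that holds spindle factors inactive, also overlapped between the groups (0.064). The tubulins, of which the tracks of these motors are made, had a median log2 fold change of 0.51 over 13 genes tested. Of the 13, 6 were separated in favor of serum, beside 20.5% of all genes tested. The unadjusted and the adjusted limma threshold were passed by 0 of 13, and DESeq2 called 0 of 13.

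**Figure D4:**
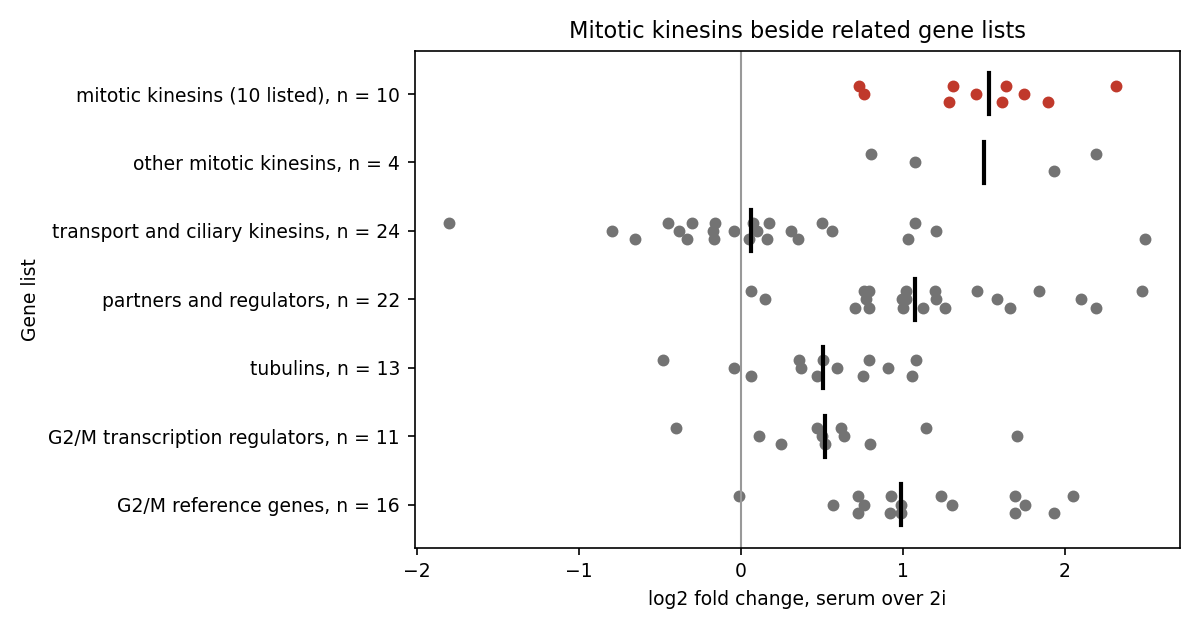
log2 fold change, serum over 2i, of single genes (points) and the median of each list (black bars), for the 10 mitotic kinesins (red) and 6 related lists (grey). The mitotic kinesins all lie above 0 with a median of 1.53, and the transport and ciliary kinesins lie on both sides of 0 with a median of 0.062.

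In bulk RNA, fewer cells in a phase of the cycle and less RNA per cell cannot be told apart. Genes known to peak in G2/M-phase lay on the same side of the comparison as the kinesins: of 16 reference genes 15 had a log2 fold change above 0, and the median was 0.99. Of these 16 genes, 14 were separated in favor of serum, beside 20.5% of all genes tested, and 6 passed the unadjusted limma threshold, beside 2.97%. Their summed normalized counts were 33244 and 45799 with serum, against 20928 and 17954 with 2i, with Ttk (log2 fold change 2.05), a spindle checkpoint kinase, at the top and Cdk1 (-0.010), the kinase that starts mitosis, at the bottom. Of the genes whose protein fragments make up the FUCCI reporter, Gmnn had 1724 and 2157 normalized counts with serum, against 893 and 962 with 2i (log2 fold change 1.06), and Cdt1 had 499 and 1322 with serum, against 772 and 1294 with 2i (-0.30). The part of cell-cycle stage at sorting in the kinesin difference was not tested.

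All 10 ESC markers were present in every library, with a median log2 fold change of 0.13, 5 higher and 5 lower in serum. Markers of other cells were low or had no row in the table: 3 of 7 fibroblast markers had a row, with sums of 304 and 239 normalized counts with serum, against 427 and 136 with 2i, 3 of 7 primitive endoderm markers had sums of 25.0 and 67.1 with serum, against 272 and 229 with 2i, 2 of 4 neural markers had sums of 193 and 71.9 with serum, against 148 and 17.5 with 2i, and 2 of 4 mesoderm markers had sums of 119 and 66.1 with serum, against 73.7 and 183 with 2i. The primitive endoderm sum, with Gata4 at a log2 fold change of -2.70, was thus higher in both 2i libraries, and its part in the kinesin difference was not tested.

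Because the members stood on the same side of the comparison, their promoters are shown. Transcription of many G2/M genes is known to run through the CHR, a short element near the start site that is bound by the MuvB complex, often with a CCAAT box upstream for the factor NF-Y. Promoters of 300 bases (250 before to 50 after the start site) were held for 9 of the 10 members, taken from RefSeq (build GRCm38.p6), and there was no entry for Kif20a. The CHR letters TTTGAA were found on either strand in 8 of 9, against 17.9% of 32851 promoters of the same length, and began within 40 bases of the start site in 7 of 9, against 4.16%. The stretches from 60 bases before to 30 bases after the start site follow for these 7 genes and for Kif18a, the member without TTTGAA in its 300 bases. They are written 5′ to 3′ on the strand of the gene, the capitals mark matches to the CHR, CCAAT and E2F letters (or their reverse complements), and the positions are those at which the same letters occur in NCBIM37.
Kif11 (chr19:37450812-37450901, plus strand): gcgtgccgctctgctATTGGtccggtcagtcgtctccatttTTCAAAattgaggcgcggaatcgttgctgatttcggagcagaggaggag
Kif15 (chr9:122860139-122860228, plus strand): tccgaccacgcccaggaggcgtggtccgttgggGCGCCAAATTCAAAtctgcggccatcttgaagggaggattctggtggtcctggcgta
Kif22 (chr7:134185905-134185994, minus strand): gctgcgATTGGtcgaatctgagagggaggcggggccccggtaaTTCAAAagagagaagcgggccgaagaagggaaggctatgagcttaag
Kif4 (chrX:97821344-97821433, plus strand): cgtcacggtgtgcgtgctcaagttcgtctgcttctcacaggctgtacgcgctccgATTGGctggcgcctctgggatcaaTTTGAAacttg
Kifc1 (chr17:34027549-34027638, minus strand): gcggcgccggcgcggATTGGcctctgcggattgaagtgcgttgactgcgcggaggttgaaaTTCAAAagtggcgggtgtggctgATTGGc
Kif20b (chr19:34996788-34996877, plus strand): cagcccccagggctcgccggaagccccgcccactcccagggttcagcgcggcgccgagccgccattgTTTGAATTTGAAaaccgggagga
Kif23 (chr9:61794577-61794666, minus strand): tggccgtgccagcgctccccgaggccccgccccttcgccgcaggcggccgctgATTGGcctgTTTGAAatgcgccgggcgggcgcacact
Kif18a (chr2:109120835-109120924, plus strand): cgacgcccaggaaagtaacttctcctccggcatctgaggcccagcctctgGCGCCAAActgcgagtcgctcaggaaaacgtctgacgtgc

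Counted from the RefSeq start site, with -1 as the last base before it, the CHR letters began at position -19 in Kif11 and Kif15 and -17 in Kif22. After that site they began at 2 in Kifc1, 3 in Kif23, 8 and 14 in Kif20b and 20 in Kif4. In Kif2c they lay further out, at -103, and Kif15 and Kif22 held another copy at -234 and -215. The RefSeq start site used for Kif2c lies inside that gene as placed above. The stretch from 60 bases before to 30 bases after it is at chr4:116851348-116851437, whereas the gene, on the minus strand, begins at position 116855244. For Kif4, on the plus strand, the stretch is at chrX:97821344-97821433, whereas the gene begins at position 97821076. The Kif2c and Kif4 matches thus lie inside the gene, away from the 5′ end given here. Both are counted among the 8 of 9, and Kif4 also among the 7 of 9 within 40 bases. The Kifc1 start site lies inside its gene as well, but its stretch (chr17:34027549-34027638) reaches past the 5′ end at 34027606. The letters CCAAT lay on either strand in 5 of 9 promoters, Kif4 among them, against 37.4% of all promoters. In Kif11 (-45), Kifc1 (-45) and Kif22 (-54) they stood upstream of the CHR letters, as they did in Kif23 (-7) and Kif4 (-5). The E2F letters (TTTCCCGC, TTTCGCGC, TTTGCCGC or TTTGGCGC, on either strand) lay in 2 of 9, against 2.26% of all promoters, at -27 in Kif15, directly before the CHR letters there, and at -10 in Kif18a. No matches of different motifs overlapped. A match describes these letters only. Kif18a, which had none of the CHR letters, had a log2 fold change of 0.76, and the members with them ran from 0.73 (Kifc1) to 2.32 (Kif23). A relation of the letters to the difference was not tested.

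**Figure D5:**
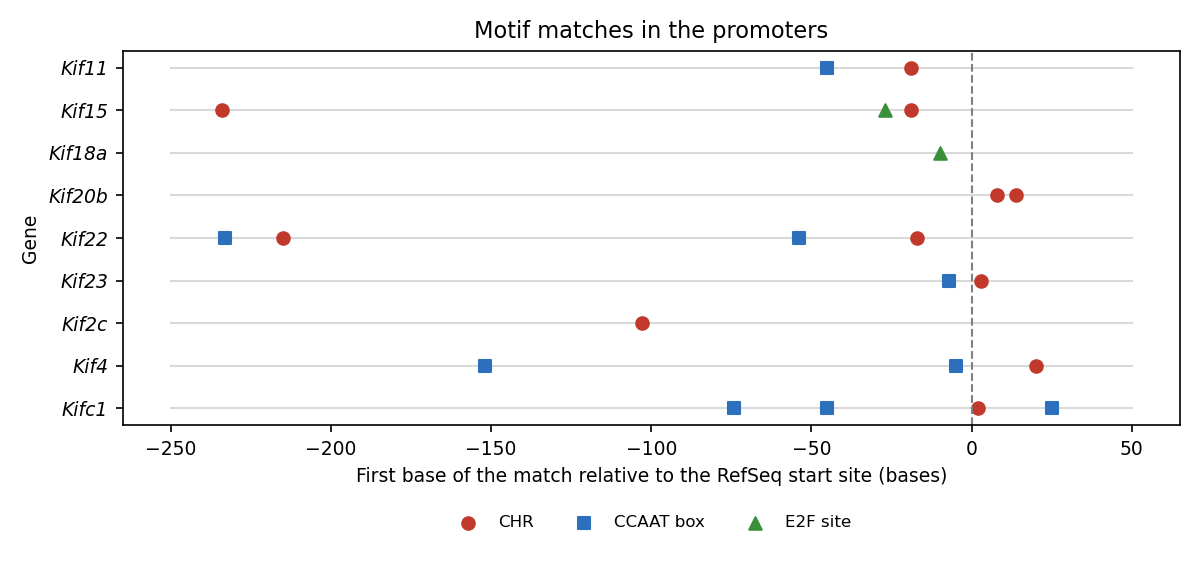
Position of CHR (red circles), CCAAT box (blue squares) and E2F (green triangles) matches on either strand in the 300-base promoters of 9 mitotic kinesins, in bases from the RefSeq start site (dashed line). CHR matches begin within 40 bases of the start site in 7 of 9 promoters.

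The transcripts of the factors that act at these elements were read from the same fit. Of 11 regulators of G2/M transcription 10 had a log2 fold change above 0, and the median was 0.52. Of the 11, 6 were separated in favor of serum, beside 20.5% of all genes tested, and 2 passed the unadjusted limma threshold, beside 2.97%. Foxm1, which joins the MuvB complex in G2-phase, had 456 and 499 normalized counts with serum, against 190 and 112 with 2i (log2 fold change 1.70). E2f4, a subunit of the complex that represses these genes in G1-phase, had a log2 fold change of 1.14. Mybl2, which joins MuvB in S-phase, had 6446 and 6959 with serum, against 5476 and 4091 with 2i (0.50), and Lin9, a core subunit of MuvB, had 0.80. Of the NF-Y subunits, Nfya was the regulator below 0 (-0.40), with overlapping groups, and Nfyb (0.52) and Nfyc (0.64) lay above 0.

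Outside the members, the genes whose log2 values over the 4 libraries lay nearest to the mean profile of the 10 kinesins, by the root mean square difference after centering, were Cep290 (0.042), Gm3604 (0.046), Skp2 (0.059), Hnrnpm (0.061) and Phf3 (0.064). Skp2, the F-box protein that marks the CDK inhibitor p27 for degradation, had 1129 and 1601 normalized counts with serum, against 485 and 477 with 2i. The members themselves lay at 0.158 (Kif22) to 0.590 (Kif23) from their mean profile. The 5 genes were picked for their nearness and the members were not, so the distances of the 5 genes and of the members cannot be compared.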

How the data were processed

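Total RNA of sorted mouse ESCs was depleted of ribosomal RNA, primed with random primers and sequenced as single 43-base reads. Per the labels and the methods, reads were aligned to mm9 with Bowtie, and the authors estimated expression with MMSeq. Versions are not given in the sources used here. What the authors deposited is a signal: the count of a gene, divided by the DESeq2 size factor of its library. In every library 100% of values were whole multiples (within 0.05) of 1 step, so whole numbers were recovered, which are called reads here. They may be rounded MMSeq estimates and not counts of observed reads.

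The test covered 13005 of 14533 genes, those whose mean reached 50 normalized counts in serum or 2i. It was limma (version 3.58.1, run in R 4.3.3) with a variance trend and no replicate term, on log2 values after adding 1, adjusted by Benjamini-Hochberg over all genes tested. Fold changes are taken after adding 1, so those of low genes are understated. The members and gene lists were chosen with earlier results of these data known. All members, any gene of a list and the 5 genes nearest to the mean kinesin profile could be named, and Kifc5b, Pdzd11 and Cdc23 were added because they share sequence with a member. Roles and positions used GENCODE vM1 (NCBIM37), which held 14462 of the genes. Word sharing was counted over exonic sequence. Alternatives were pseudocounts of 0.5 and 5, no filter, a minimum of 200, scaling by TMM, upper quartile or quantiles, a replicate block, no trend, a GC content and length correction, each library left out, DESeq2 (version 1.42.0) or edgeR (version 4.0.16) on whole reads, and an unadjusted threshold. Poisson intervals cover counting error only and take the recovered whole numbers as counted reads.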

Additional observations from a re-analysis of the deposited data

How the results depend on the processing

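The other pseudocounts and scalings, the GC content and length correction, edgeR and DESeq2 gave each kinesin a log2 fold change above 0 (80 values, 0.43 to 2.32). Of these, the pseudocounts could not change the direction, since they keep the order of the libraries and the groups did not overlap. DESeq2 could hardly change it, since the deposited values were already divided by its size factors. The remaining alternatives say nothing of direction either. They leave the fold change as it is or, with groups that do not overlap, leave out a library. Of 170 values of a single member under an alternative, 167 stayed on the same side of the adjusted threshold and 3 passed it. Those 3 were Kif23 with a replicate block (limma, Benjamini-Hochberg adjusted p = 0.0213) and Kif20a and Kif23 with DESeq2. The replicate differences of the groups correlated across genes (r = 0.480), but 2 replicate numbers are too few to tell whether equal numbers mark paired samples. With the replicate block 1 kinesin was called, with 44 genes higher in serum and 159 higher in 2i, and with the block and a GC content and length correction together, chosen after seeing the data, 0 kinesins were called, with 1 gene higher in serum and 3 in 2i. DESeq2 called 2 kinesins, with 73 genes higher in serum and 178 in 2i, and edgeR called 0 kinesins and 0 genes higher in 2i (its unadjusted threshold was passed by 8 kinesins). The unadjusted threshold gave 8 kinesins, 386 genes higher in serum and 390 in 2i, and the number of kinesins was 6 without trend and 9 with the GC content and length correction, with or without the block. Instead of 2 genes higher in 2i, a minimum of 200 gave 4, limma without trend 1, and the GC content and length correction 0, and leaving out a library gave 0 to 0. Leaving out a library moved the number of kinesins past the unadjusted threshold between 0 and 6 and their median log2 fold change between 1.14 and 1.75. A group left with 1 library was assumed to vary like the other. The other settings kept this median between 1.38 and 1.53. Upper quartile scaling put the median of all genes at -0.14, a minimum of 200 at 0.12 and the GC content and length correction at 0.10. The serum minus 2i difference in the kinesin share of motor reads was 16.4 percentage points, and 18.9 without Kif5b, an alternative chosen after seeing the data. The causes of these changes were not tested. Each group had 2 libraries, and edgeR gave a common biological coefficient of variation of 0.668 over all genes tested, not over the kinesins alone. Whether library spread or read number limits the kinesin comparisons was not tested. The reads of Kifc1, Kif20a and Kif4 that fall in shared sequence cannot be assigned from the deposited values.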
